A study of Mus musculus with 6 samples.

Results

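The Notch ligands Dll1, Dll3, Dll4, Jag1 and Jag2, the receptors Notch1, Notch2 and Notch3, and the fringe glycosyltransferases Lfng and Mfng were examined in mouse neuralized embryoid bodies grown with and without stimulation of the hedgehog pathway. All probe sets whose single gene symbol on the platform was one of these names were taken. They were 18 of the 45037 probe sets that are not controls, and they represented 10 of 18193 genes. RNA was measured on Affymetrix Mouse Genome 430 2.0 arrays, 1 per culture, and values are the deposited intensities on a linear scale. The RA + Ag1.3 cultures received 500 nM all-trans retinoic acid and 50 nM Ag1.3, an agonist of the hedgehog transducer Smoothened, for 3 days (n = 3). The RA cultures received 500 nM all-trans retinoic acid alone for the same 3 days (n = 3). Both groups came from 1 embryonic stem cell line that carried a FLAG-tagged Gli1 transgene driven constitutively by the Rosa26 promoter, had been in suspension for 2 days before treatment, and were grown in parallel as 3 pairs. The RA cultures therefore also carried an added hedgehog transcription factor.

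Notch is a receptor that is cleaved when it binds a Delta or Jagged ligand on a neighbouring cell, and the freed intracellular part enters the nucleus and acts with Rbpj to switch on Hes and Hey repressors. In the neural tube this keeps cells as progenitors, while cells that start to differentiate express proneural transcription factors and Delta ligands. Fringe enzymes extend sugars on the receptor and so change which ligand activates it.

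Promoter windows in RefSeq's GRCm38.p6 table, which run from 250 bases before to 50 bases after a transcript start, were found for 9 of the 10 genes, in 10 windows, and Mfng was not among them. Those shown are the windows of Dll3 and Notch1, which rose with Ag1.3, and, beside them, of Dll1 (the more upstream of its 2 starts), a Delta ligand like Dll3, and Lfng, a fringe like Mfng, neither of which passed the test. They lie at chr7:28301736-28302035 (minus strand), chr2:26503773-26504072 (minus strand), chr17:15376883-15377182 (minus strand) and chr5:140607091-140607390 (plus strand). Each is written 5′ to 3′ on the strand of the gene, and capitals mark matches to CANNTG, the E-box that proneural and other bHLH factors can bind.
Dll3: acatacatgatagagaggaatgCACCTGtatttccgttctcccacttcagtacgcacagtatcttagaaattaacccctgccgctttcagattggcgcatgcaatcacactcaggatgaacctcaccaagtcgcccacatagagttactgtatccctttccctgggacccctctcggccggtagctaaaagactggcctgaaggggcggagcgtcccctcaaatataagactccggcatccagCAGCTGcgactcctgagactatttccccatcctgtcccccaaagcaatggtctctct
Notch1: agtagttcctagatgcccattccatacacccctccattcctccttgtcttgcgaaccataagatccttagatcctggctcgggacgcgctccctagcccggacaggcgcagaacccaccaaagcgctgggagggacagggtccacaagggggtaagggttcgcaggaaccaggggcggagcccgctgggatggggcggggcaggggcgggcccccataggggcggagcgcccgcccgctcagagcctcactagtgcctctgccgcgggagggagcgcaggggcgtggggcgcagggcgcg
Dll1: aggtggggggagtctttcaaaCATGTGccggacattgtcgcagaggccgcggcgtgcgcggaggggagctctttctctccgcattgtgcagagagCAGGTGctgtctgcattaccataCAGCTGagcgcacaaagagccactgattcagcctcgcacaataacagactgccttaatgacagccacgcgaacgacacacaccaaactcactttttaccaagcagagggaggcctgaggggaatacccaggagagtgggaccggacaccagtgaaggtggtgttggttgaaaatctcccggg
Lfng: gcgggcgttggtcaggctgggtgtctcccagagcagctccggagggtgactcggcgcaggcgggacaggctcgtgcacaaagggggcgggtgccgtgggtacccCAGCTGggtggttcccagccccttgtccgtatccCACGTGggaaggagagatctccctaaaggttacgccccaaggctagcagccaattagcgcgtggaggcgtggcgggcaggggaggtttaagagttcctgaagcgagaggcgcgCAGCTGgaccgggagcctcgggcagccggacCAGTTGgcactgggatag

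Positions are counted from 1 at the 5′ end of a window, and both strands were searched. The Dll3 window held 2 E-boxes, starting at positions 23 and 244, and that at 244 read CAGCTG. The printed Dll1 window held 3, starting at 22, 96 and 119, of which that at 119 read CAGCTG. The Lfng window held 4 and the Notch1 window held 0. E-boxes were found in 5 of the 10 windows and in 72.3% of the 32807 promoter windows searched. CAGCTG, which is one form of CANNTG and is counted in it too, was found in 4 of the 10 windows and in 16.3% of all windows. CAGATG, another such form, was found in 0 of the 10 and in 17.2% of all. TGGGAA, the core of an Rbpj site, was found in 1 of the 10, that of Lfng, at 116 and 143, and in 25.6% of all windows. The match at 143 overlaps the E-box at 139. CCACCCA, part of a Gli site, was found in the same 1 of the 10, at 109, where it overlaps the E-box at 105, and in 9.31% of all windows. These matches describe letters and show no binding.

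With Ag1.3, 3 of the 10 genes rose and 0 fell in limma's paired test over all genes. They were 1 fringe (Mfng), 1 ligand (Dll3) and 1 receptor (Notch1). Mfng rose 2.86-fold, Dll3 1.90-fold and Notch1 1.58-fold. In such bulk RNA, more or fewer cells of a type and more or less RNA per cell cannot be told apart. Of all genes 1.39% passed the test, 1.07% being higher and 0.313% lower. Of the 10 values 8 were above 0, against 48.1% of all genes, and their median log2 change, on the log2(intensity + 16) scale, was 0.19, against -0.01 over all genes. Scaled to the hybridization spikes, 5 of the 10 were above 0, against 3309 of all 18193 genes. The median there was 0.01, against -0.16 over all genes. Ranked by fold change among the 195 genes that rose, Mfng was number 42, Dll3 number 96 and Notch1 number 165. None of the 3 passed in limma's test without the replicate block, where adjusted p was 0.180 for Mfng, 0.444 for Dll3 and 0.591 for Notch1, or with a pseudocount of 1. Leaving out any 1 pair also ended the calls of Dll3 (adjusted p = 0.0756 to 0.0902) and Notch1 (adjusted p = 0.115 to 0.202). That of Mfng ended without pair 1 (adjusted p = 0.0521) or pair 2 (adjusted p = 0.0707).

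**Figure D1:**
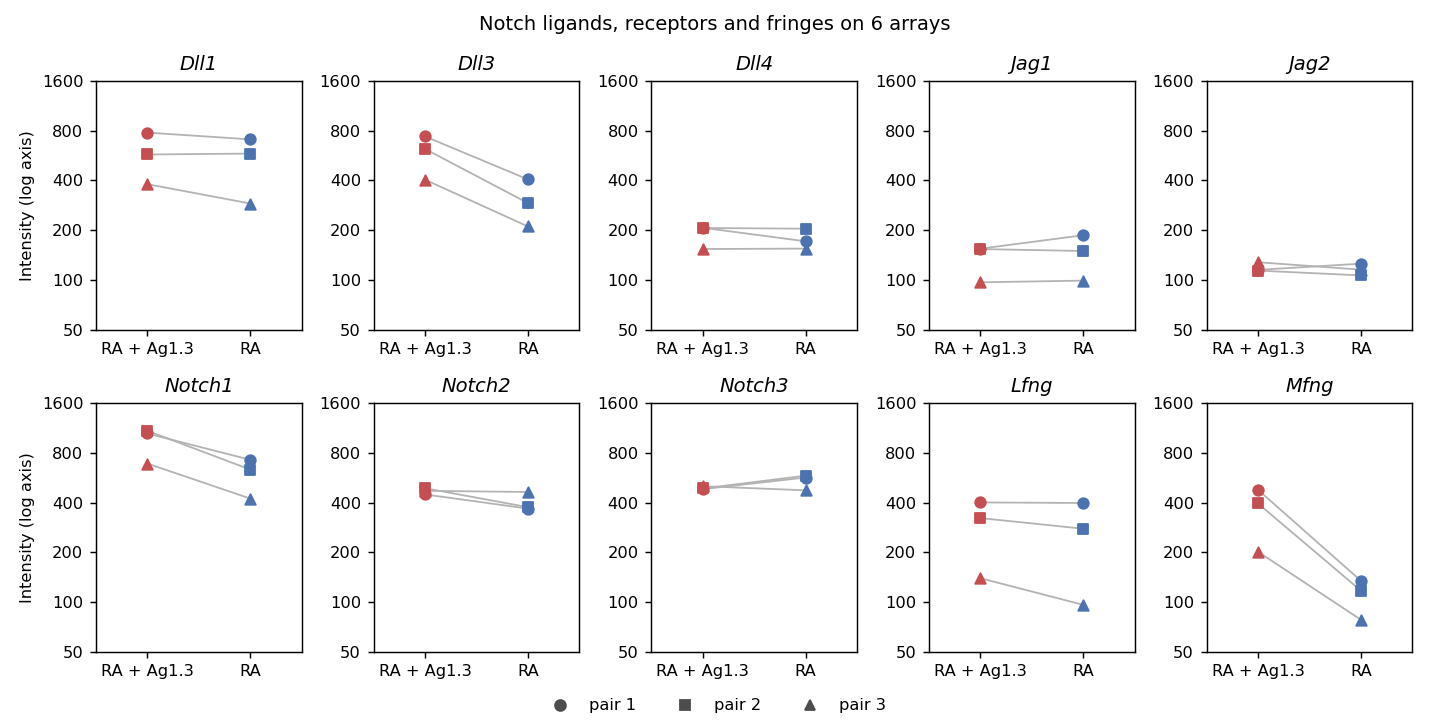
Intensity (log axis) of the probe set that stands for each gene, with RA + Ag1.3 cultures on the left and RA cultures on the right of each panel; symbols mark pairs 1 to 3 and lines join the cultures of a pair. Mfng, Dll3 and Notch1 slope down to RA in all 3 pairs, and for Mfng alone the groups do not overlap.

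Among the ligands, Dll3 is a divergent Delta protein that is known to act within the cell rather than as an activating ligand. It read 739, 621 and 404 in RA + Ag1.3 replicates 1 to 3, against 406, 292 and 211 in RA replicates 1 to 3. Each Ag1.3 culture was higher than its RA partner, and the groups overlapped slightly because RA replicate 1 was just above Ag1.3 replicate 3. The means were 588 ± 170 with Ag1.3 and 303 ± 98.1 in RA (SD, n = 3 each). The log2 change was 0.93 (SE 0.08, adjusted p = 0.0134 in limma's test), and the differences within pairs 1 to 3 were 0.84, 1.05 and 0.89.

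Dll1, the main Delta ligand of newly differentiating neural cells, read 780, 575 and 380 with Ag1.3, against 709, 582 and 290 in RA. The groups covered almost the same range, and pair 2 differed by -0.02 on the log2 scale. Its log2 change was 0.16, with a 95% interval of -0.09 to 0.41 and adjusted p = 0.531 in limma's test, so a change of the size seen for Dll3 lies outside the interval. The difference between the changes of Dll3 and Dll1 was not itself tested.

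Dll4, a ligand of blood vessels and of V2 interneuron progenitors, read 207, 206 and 154 with Ag1.3, against 171, 204 and 155 in RA. Jag1, which marks certain intermediate and dorsal progenitor domains of the neural tube, read 155, 154 and 96.7 with Ag1.3, against 186, 150 and 99.0 in RA. Jag2, a ligand found in motor neurons among other cells, read 115, 114 and 128 with Ag1.3, against 125, 107 and 115 in RA. In all 3 genes the groups overlapped. Their log2 changes were 0.09, -0.08 and 0.04, with 95% intervals of -0.13 to 0.31 for Dll4, -0.30 to 0.14 for Jag1 and -0.18 to 0.25 for Jag2. All 3 probe sets of Jag1 had values below 0, the further 2 at -0.19 and -0.09, and none passed.

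Among the receptors, Notch1, the main receptor of neural progenitors, read 1048, 1089 and 690 with Ag1.3, against 726, 634 and 423 in RA. Each Ag1.3 culture was higher than its partner, while Ag1.3 replicate 3 lay below RA replicate 1. The means were 942 ± 220 with Ag1.3 and 594 ± 155 in RA (SD, n = 3 each), with a log2 change of 0.66, SE 0.08 and adjusted p = 0.0368 in limma's test. A further, dimmer Notch1 probe set read 580, 436 and 327 with Ag1.3, against 318, 263 and 184 in RA, and there the groups did not overlap. Its log2 change was 0.77. In a fit over all 45037 probe sets this one passed with adjusted p = 0.0371, and the brighter one did not with adjusted p = 0.0679.

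Notch2 read 448, 489 and 471 with Ag1.3, against 368, 375 and 464 in RA, and RA replicate 3 was level with the Ag1.3 cultures. Notch3, a receptor of neural progenitors and of vessel wall cells, read 483, 487 and 503 with Ag1.3, against 568, 583 and 475 in RA. Pairs 1 and 2 were lower with Ag1.3 and pair 3 was not, with differences of -0.23, -0.25 and 0.08. The log2 changes were 0.22 for Notch2 (95% interval -0.02 to 0.46) and -0.13 for Notch3 (95% interval -0.37 to 0.11). For each of these receptors the further probe set gave a value of the other sign, -0.06 for Notch2 and 0.07 for Notch3, and none of the 4 passed.

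Among the fringes, Mfng read 478, 395 and 202 with Ag1.3, against 134, 117 and 78.1 in RA. All Ag1.3 cultures were above all RA cultures, which held for 1 of the 10 genes by the probe set that stands for each and for 11.8% of all genes in either direction. The means were 358 ± 142 with Ag1.3 and 110 ± 28.8 in RA (SD, n = 3 each). The log2 change was 1.52 (SE 0.12, adjusted p = 0.0104 in limma's test), and the pairs differed by 1.72, 1.63 and 1.21. Only 1 probe set reads Mfng, so no further probe set bears on its value.

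Lfng, the fringe that cycles in somite formation and is also expressed in the neural tube, read 401, 323 and 139 with Ag1.3, against 398, 278 and 96.2 in RA. The groups overlapped over most of their range. The pairs differed by 0.01, 0.20 and 0.47, and the log2 change was 0.23 with a 95% interval of -0.04 to 0.50 and adjusted p = 0.414 in limma's test. Its further probe set was at 12.3 to 40.6 with Ag1.3 and 18.3 to 36.3 in RA, partly in the range of the control probe sets with no target, and gave -0.02.

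**Figure D2:**
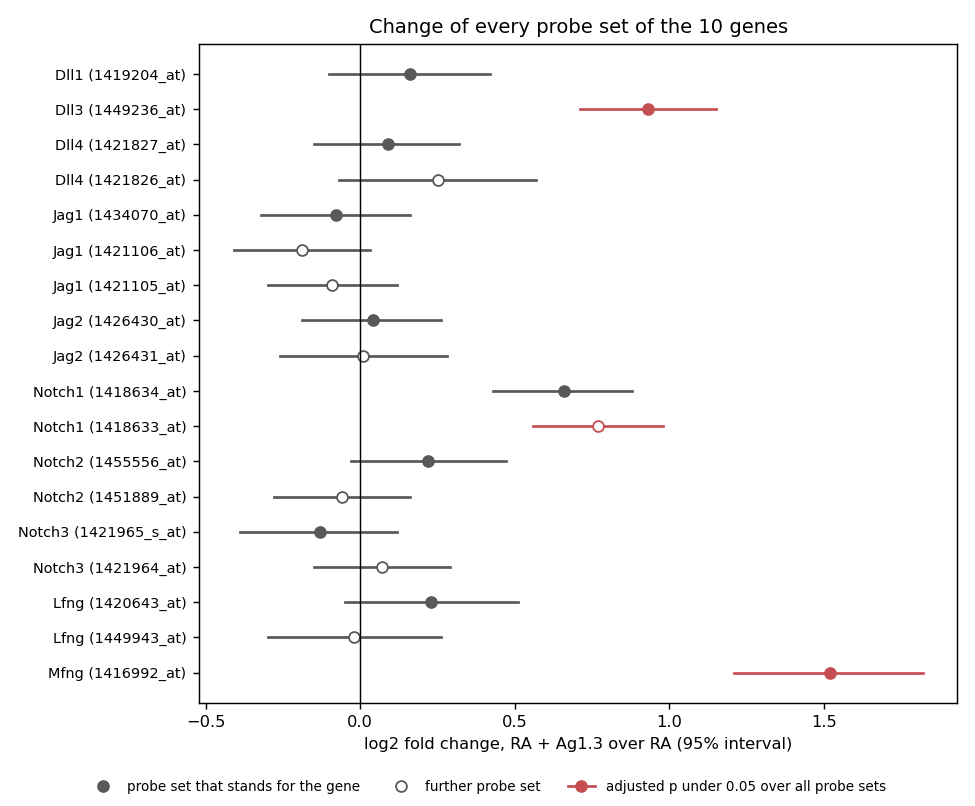
Log2 change, RA + Ag1.3 over RA, of all 18 probe sets with 95% intervals from the fit over all probe sets; filled points stand for the gene and open points are further probe sets. Only the probe sets of Dll3 and Mfng and the dimmer one of Notch1 are red, the mark for an adjusted p under 0.05.

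By probe set, 3 of 18 passed over all probe sets, against 0.515% of all probe sets. Of the 8 further probe sets, 5 had the sign of the one that stands for the gene and 3 had the opposite sign. The probe sets that stand for the 10 genes read between 78.1 and 1089 on every array, above the 4.02 to 20.71 of the Trp control probe sets, which have no target in the sample. Of the further ones, 2 had a value in that range on at least 1 array.

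In several of these genes the pairs differed from each other more than the treatments did. In pair 3, 6 of the 10 genes read at least 0.5 lower on the log2 scale than the mean of pairs 1 and 2, in both treatments, as 1.23% of all genes did. This limit was chosen after the values were seen, and no test was made. Lfng was lower by 1.27 with Ag1.3 and by 1.64 in RA, and Dll1 by 0.79 with Ag1.3 and 1.11 in RA. Both differences are larger than the effect of Ag1.3 on the same gene. Mfng was lower by 1.05 with Ag1.3 and 0.59 in RA, and Dll3, Notch1 and Jag1 by 0.59 to 0.72 in either treatment. Dll4 was lower by 0.39 with Ag1.3 and 0.25 in RA, and Jag2, Notch2 and Notch3 lay between -0.27 and 0.31.

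**Figure D3:**
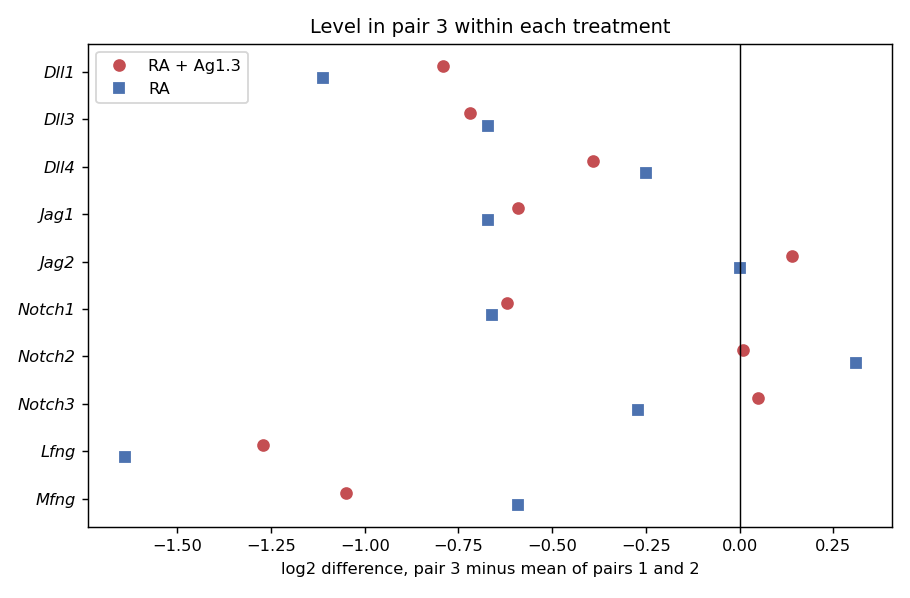
Log2 difference between pair 3 and the mean of pairs 1 and 2, for RA + Ag1.3 cultures (circles) and RA cultures (squares). Lfng and Dll1 lie farthest below 0 in RA, at -1.64 and -1.11, and Jag2, Notch2 and Notch3 lie between -0.27 and 0.31.

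Some other measures also differed between the pairs. In the proneural, pluripotent and endoderm sums pair 3 was the lowest in both treatments or the highest in both. Not every list did so. The summed intensity of 5 floor plate genes in replicates 1 to 3 was 2679, 1859 and 2980 with Ag1.3, against 968, 809 and 784 in RA. In the proneural and pluripotent sums pairs 1 and 2 differed from each other as well. The summed intensity of 7 proneural genes in replicates 1 to 3 was 4161, 2998 and 1758 with Ag1.3, against 1499, 1165 and 728 in RA. The summed intensity of 6 genes of pluripotent cells was 2927, 4349 and 5876 with Ag1.3, against 4648, 6815 and 7591 in RA, and that of 8 endoderm genes was 629, 666 and 1543 with Ag1.3, against 883, 989 and 1972 in RA. The part of these differences in the Notch genes was not tested.

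In the wider pathway, 58 of 62 listed genes were measured, and 2 rose and 0 fell in limma's test. Both were targets. Hey2, a repressor downstream of Notch, averaged 237 ± 35.3 with Ag1.3 and 54.4 ± 9.88 in RA (SD, n = 3 each), a log2 change of 1.84 with adjusted p = 0.0129. Hey1 averaged 313 ± 35.9 with Ag1.3 and 118 ± 24.7 in RA (SD, n = 3 each), a log2 change of 1.31 with adjusted p = 0.0180. An unadjusted p under 0.05 was found for 19 of the 58, against 14.9% of all genes. Their median log2 change was 0.04.

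The 14 targets had a median log2 change of 0.29, with 11 above 0 and 9 at an unadjusted p under 0.05 in limma's test. Nrarp, named after its values were seen, is in this list and also among the modulators. Hes5 and Hes1, the best known targets in neural progenitors, are named after their values were seen. Hes5 read 1114 ± 628 with Ag1.3 and 808 ± 471 in RA (SD, n = 3 each), higher in 3 of 3 pairs, with a log2 change of 0.46 and adjusted p = 0.0808 in limma's test. Hes1 had a log2 change of -0.15 and adjusted p = 0.716, and neither passed.

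The other roles had 0 genes past limma's threshold. Of 10 genes of receptor maturation and cleavage, 3 had an unadjusted p under 0.05. Adam10, the protease that makes the first ligand-induced cut, had a log2 change of 0.31 (adjusted p = 0.186), and Furin, which cleaves the receptor during its maturation, -0.19 (adjusted p = 0.307). Of 9 genes of ligand endocytosis, 1 had an unadjusted p under 0.05, the ubiquitin ligase Mib1 at 0.25 (adjusted p = 0.207), while Neurl1a was at 0.17. Of 8 genes of the nuclear complex, 0 had an unadjusted p under 0.05 in limma's test. Maml2, a coactivator, was at 0.25 with means in the range of the Trp controls, Spen, a corepressor, was at -0.12, and Rbpj, named after its value was seen, was at -0.04 with means of 1030 ± 54.8 with Ag1.3 and 1057 ± 77.5 in RA (SD, n = 3 each).

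Of 12 modulators, 6 had an unadjusted p under 0.05, 3 of them with values above 0 and 3 below, and of the 12 values 6 were above 0. Fbxw7, which marks the cleaved receptor for degradation, was at 0.34 (adjusted p = 0.116) and Numbl, a relative of the Notch inhibitor Numb, at 0.31 (adjusted p = 0.153). Of 6 other family members, 1 had an unadjusted p under 0.05, Dlk1, a noncanonical ligand, at 0.64 (adjusted p = 0.207), and Dner, another such ligand, was at -0.35 (adjusted p = 0.384).

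**Figure D4:**
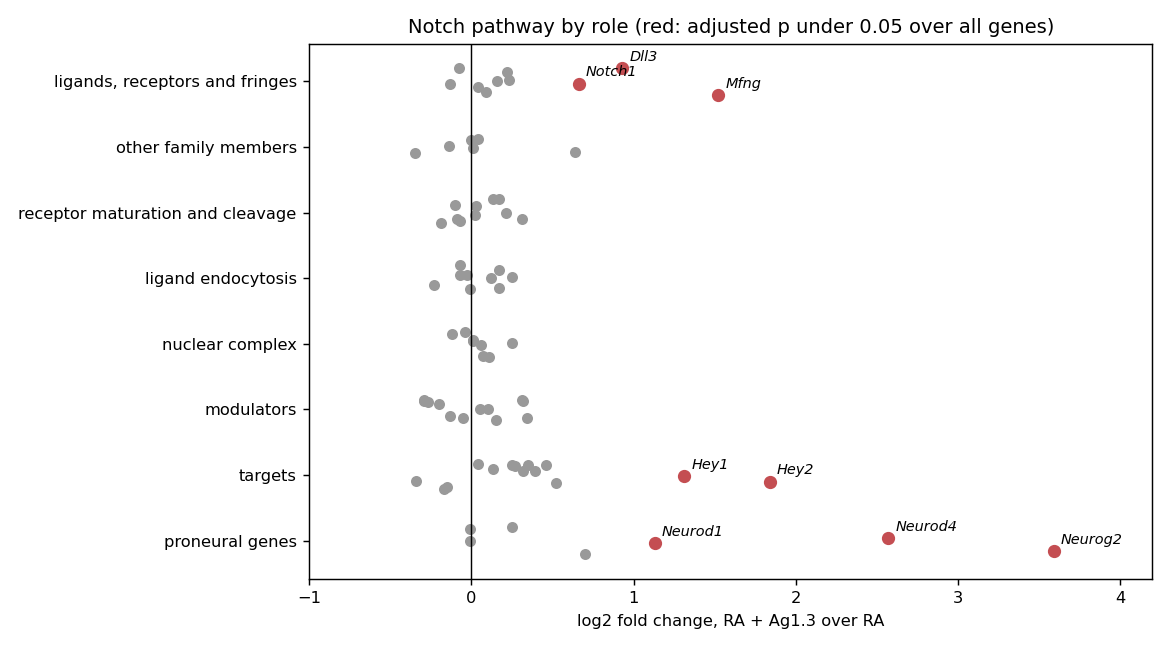
Log2 change, RA + Ag1.3 over RA, of the measured genes of each role, 1 point per gene with random vertical spread; red points have an adjusted p under 0.05 over all genes. Mfng, Dll3 and Notch1 among the 10 genes, Hey1 and Hey2 among targets and 3 proneural genes are red.

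The list of proneural genes, some of which act upstream of Delta ligands, had 3 of 7 measured members higher and 0 lower. The other 4, named after their values were seen, were Insm1 at 0.70, Neurog1 at 0.25, and Neurog3 and Atoh1 at -0.01 each. Neurog2 averaged 898 ± 532 with Ag1.3 and 51.3 ± 18.5 in RA (SD, n = 3 each), a log2 change of 3.59. Neurod4 rose by 2.57 and Neurod1 by 1.13 on the log2 scale, with adjusted p of 0.0180 for Neurog2, 0.00287 for Neurod4 and 0.0104 for Neurod1 in limma's test. In the same test adjusted p of Neurod1 was 0.519 without the replicate block, 0.0669 without pair 1 and 0.0726 without pair 2, and that of Neurog2 was 0.0710 without pair 1 and 0.0846 without pair 2.

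Markers of some cell types also changed with Ag1.3. Of 10 markers of neurons 7 rose, among them Elavl4, an RNA-binding protein, at 1.70 and Stmn2, a microtubule regulator, at 1.55 on the log2 scale. The summed intensity of the neuron list was 6070 to 8569 with Ag1.3, against 2058 to 3445 in RA. Of 5 motor neuron markers 4 rose, with sums of 1218 to 2027 with Ag1.3, against 154 to 191 in RA, and the examples were Isl1 at 3.65 and Slc18a3 at 2.22. Of 5 genes listed for the floor plate 4 rose, with sums of 1859 to 2980 with Ag1.3, against 784 to 968 in RA. Among them were Foxa2 at 2.35, Spon1 at 2.73 and, named after its values were seen, Nkx2-2 at 3.22. Nkx2-2 is not particular to the floor plate. In RA, Slc18a3 averaged 13.5 and Nkx2-2 11.4, within the range of the Trp controls. Of 8 markers of neural progenitors 0 were called by limma, 3 had a p under 0.05 before adjustment, and sums were 10523 to 12272 with Ag1.3, against 8986 to 12572 in RA. Sox2, which neural progenitors share with pluripotent cells and which is named after its values were seen, averaged 2586 ± 109 with Ag1.3 and 2769 ± 113 in RA (SD, n = 3 each). Nes had a log2 change of 0.27 and Pax6 one of -0.48. Foxa2 did not pass without the replicate block (limma's adjusted p = 0.0923), nor Slc18a3 without pair 2 (0.0512). The part of these markers in the changes of Mfng, Dll3 and Notch1 was not tested.

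Among neurons of other ventral or dorsal origin, 1 of 6 V2 interneuron markers rose, Lhx3 at 2.86, a gene that motor neurons share, with sums of 574 to 802 with Ag1.3, against 381 to 463 in RA. Without Lhx3 the groups overlapped, with sums of 418 to 476 with Ag1.3, against 363 to 444 in RA. Of the 6 markers, 4 had an unadjusted p under 0.05 in limma's test, against 14.9% of all genes. Besides Lhx3 these were, named after their values were seen, Foxn4 at 0.37, Vsx1 at 0.25 and Gata3 at -0.38, and none of these passed. The call of Lhx3 ended without pair 1 or pair 2, where limma's adjusted p was 0.0521 and 0.124. In RA Lhx3 averaged 17.5, within the range of the Trp controls. Its log2 change was 3.62 with a pseudocount of 1 and 1.86 with 64. Of 5 markers of V1 and dorsal neurons 2 fell, Lhx1 at -1.30 and Lhx5 at -1.07 on the log2 scale, with sums of 181 to 256 with Ag1.3, against 260 to 483 in RA. Without these 2 genes the sums overlapped, at 128 to 150 with Ag1.3, against 132 to 148 in RA. Lhx5 averaged 15.0 with Ag1.3, within the range of the Trp controls. Its log2 change was -1.68 with a pseudocount of 1 and -0.52 with 64. Without the replicate block limma's adjusted p was 0.392 for Lhx1 and 0.262 for Lhx5, and neither passed without pair 1 (0.113 and 0.0791) or pair 2 (0.111 and 0.0890).

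Markers of other tissues that use Notch were read as well. Of 9 endothelial markers 4 had means within the range of the Trp controls in both groups, Erg and, named after their values were seen, Tie1, Emcn and Cldn5, and the list summed to 302 to 306 with Ag1.3, against 268 to 338 in RA. Of 7 markers of mural cells 2 had such means, and the list summed to 234 to 311 with Ag1.3, against 264 to 324 in RA. In both lists limma called 0, and 3 endothelial and 1 mural marker had a p under 0.05 before adjustment. Kdr was at 0.57, Erg at -0.37, Pdgfrb at -0.40 and Des at -0.25 on the log2 scale. The list of presomitic mesoderm and somites, tissues where Dll1, Dll3 and Lfng are also active, summed to 331 to 370 with Ag1.3, against 404 to 458 in RA, and 1 of its 8 measured markers fell, Uncx by 1.61 on the log2 scale. Without Uncx the sums overlapped, at 323 to 365 with Ag1.3, against 312 to 429 in RA. Of the 8 markers, 3 had an unadjusted p under 0.05 in limma's test. Uncx averaged 6.19 with Ag1.3, within the range of the Trp controls, and its log2 change was -2.87 to -0.74 over the alternatives to the main fit. In the other lists Pou5f1 fell by 0.68, the 1 of 6 pluripotency genes past the threshold, and Sox17 by 1.21 and Krt8 by 0.62, 2 of 8 endoderm genes. Of the 6 pluripotency genes 0 were above 0, and 5 had an unadjusted p under 0.05 in limma's test. The endoderm list had 4 above 0 and 3 with such a p. Uncx, Pou5f1, Sox17 and Krt8 all lost their calls without the replicate block, where limma's adjusted p was 0.123, 0.799, 0.526 and 0.858, and when any 1 of the pairs was left out.

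Across the 6 arrays, median intensities were 48.68 to 52.55. On the log2 scale the hybridization spikes were 0.19 higher with Ag1.3 than in RA. Scaled to these spikes, 287 genes were higher and 1399 lower in place of 195 and 57. The 3 genes that rose passed there too, with log2 changes of 1.34 for Mfng, 0.74 for Dll3 and 0.47 for Notch1.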

How the data were processed

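Values were the authors' deposited intensities, 1 per probe set and array on a linear scale. Neither the software that summarised the probes nor any scaling of the arrays is given in the sources used here. Per the labels' protocols, the mirVana kit was used for RNA, and 2.5 µg gave biotinylated cRNA by the 3' IVT Express kit. The number of arrays limits the precision. The p-values rest on the spread between 3 pairs of cultures of 1 line, which limma moderates with the spread of all genes in the fit.

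Of 45101 probe sets, 64 controls were left out, and of the other 45037, 34945 had 1 gene symbol, 932 several and 9160 none in the platform annotation. Symbols of 34741 matched RefSeq by gene identifier. Where a gene had several, the probe set with the highest mean of log2(intensity + 16) over the 6 arrays stood for it, a rule settled after the counts of called genes by this mean (252) and by the mean linear intensity (256) had been seen. Log2 changes are log2 fold changes on this scale, which understates changes of dim genes. All 18193 genes, and separately all probe sets, went through limma 3.58.1 (R 4.3.3, lmFit and eBayes, two-sided) with the replicate number as a block, Benjamini-Hochberg adjustment over the whole table and a threshold of 0.05. The code was tested on simulated data. The series' design text calls the cultures paired. Deviations from group means correlated across genes at 0.538, 0.186 and 0.561 within pairs 1 to 3, and at -0.515 to 0.0726 between cultures of different pairs. Genes are not independent replicates, and the deviations of the 3 cultures of a group sum to 0, so these values depend on each other. Intervals are limma's 95% intervals.

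The genes and lists were chosen with earlier results of these data known. All 10 genes are named, and of each role the up to 4 called genes of smallest p (if there was no call, the 2 genes of smallest p), and likewise up to 2 of each marker list. Other genes are said to be named after their values were seen. Some listed genes were not analysed here. Alternatives changed the pseudocount, block, moderation, filter, scaling, choice of probe set or pairs. With the block, leaving out 1 array removes its pair.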

Additional observations from a re-analysis of the deposited data

How the results depend on the processing

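In the 15 alternatives Mfng passed in 11, Dll3 in 10 and Notch1 in 10, with log2 changes of 1.23 to 1.67 for Mfng, 0.74 to 0.97 for Dll3 and 0.47 to 0.77 for Notch1, above 0 each time. In limma's test 0 of the 10 genes passed with a pseudocount of 1 and 0 without the replicate block, with 3 at an unadjusted p under 0.05 in each, and 0 to 1 passed without 1 of the pairs, with 3 to 5 at an unadjusted p under 0.05. Of all 18193 genes, 2411 had such a p with a pseudocount of 1 and 1348 without the replicate block. Without pair 1, 2 or 3 they were 1579, 1983 and 3031. By probe set 0 passed with a pseudocount of 1, 0 without the replicate block and 0 when a pair was left out, with 4 or 5 of 18 at an unadjusted p under 0.05. The counts over all probe sets in these settings are not given here. The 252 genes called in all became 0 with a pseudocount of 1 (2411 at an unadjusted p under 0.05 in limma's test), 831 with 64, 86 without the replicate block, 891 with moderation that follows intensity, 951 among genes above the median probe set, 1686 when scaled to the spikes, and 35 to 62 without 1 of the pairs. The share of higher genes, 77.4%, was 56.9% with a pseudocount of 64, 90.7% without the replicate block, 57.8% with moderation that follows intensity, 52.3% among genes above the median probe set and 17.0% when scaled to the spikes. With the probe set of highest mean linear intensity, an alternative added after the data were seen, 256 genes were called in all, and Mfng, Dll3 and Notch1 passed. The 2 wider pathway genes called became 0 with a pseudocount of 1 (14 at an unadjusted p under 0.05 in limma's test), 6 with 64, 9 with moderation that follows intensity, 8 among genes above the median probe set, 8 when scaled to the spikes (2 higher and 6 lower), and 0 to 2 without 1 of the pairs, the 0 being without pair 3, where 21 had an unadjusted p under 0.05. Of the 18 genes named for roles or markers and called by limma, 18 lost the call with a pseudocount of 1, 8 without the replicate block, and 12 when at least 1 of the pairs was left out. Krt8 also lost it with the mean of its probe sets (adjusted p = 0.0761) or that of largest variance (0.0813), and Pou5f1 with that of largest variance (0.0549). Values that changed sign were those of Dll1 (-0.02), Dll4 (-0.09), Jag2 (-0.13) and Neurl1a (-0.01) when scaled to the spikes, Jag1 without pair 1 (from -0.14 to 0.00 over the pairs left out), Jag2 without pair 3 (from -0.01 to 0.11), and Neurl1a with the mean of its probe sets (-0.02) or that of largest variance (-0.06), and none of these passed. The cause of these changes was not tested. Some alternatives use fewer arrays or genes by construction.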

Other observations

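The genes whose pattern over the 6 arrays was most like that of Mfng, the gene with the largest change among the 10, were Vcan, Hdac5 and Zbtb18. Pearson's r on the log2 scale was 0.999 for Vcan, 0.996 for Hdac5 and 0.995 for Zbtb18, the 3 highest of 11433 genes above the median probe set. The 6 arrays share the treatment difference and the pair differences, so this is a description. Vcan, a proteoglycan of the extracellular matrix, read 709, 675 and 459 in RA + Ag1.3 replicates 1 to 3, against 384, 350 and 290 in RA replicates 1 to 3, with a log2 change of 0.80 and adjusted p = 0.0252 in limma's test. Zbtb18, a zinc finger transcription factor of the developing nervous system, read 1981, 1704 and 1292 with Ag1.3, against 948, 860 and 700 in RA, with a log2 change of 0.97 and adjusted p = 0.0115. Hdac5, a histone deacetylase, had a log2 change of 0.38 and adjusted p = 0.0989 and did not pass.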
